A study of Mus musculus with 150 samples.

Results

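Trp53, Mdm2, Mdm4 and Trp63 were followed in mouse lung epithelial cells labelled as p53 knockout (KO) or wild type (WT). The 4 genes were chosen by name, from 24341 gene rows of a bulk RNA sequencing table and 31175 gene rows of single-cell tables. The bulk set held 3 KO libraries (replicates 7, 8 and 10) and 3 WT libraries (replicates 1, 5 and 6). The single-cell set held 64 KO wells and 72 WT wells of Fluidigm C1 chips (microfluidic plates that hold a captured cell per well), after wells with a debris or valve remark and off-chip controls were left out. The design text sets the work around the behaviour of lung progenitor cells with and without p53.

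The bulk KO cells came from p53flox/flox mice that also carried Scgb1a1-CreERTM and the Rosa26-mT/mG reporter, and the bulk WT cells from mice with the same Cre and reporter alleles on a p53+/+ background. Both groups were 8 to 12 weeks old and received tamoxifen, which switches on the Cre recombinase in cells that use the Scgb1a1 promoter, the promoter of the secretory protein of airway club cells. The titles name day 30 and the protocol names 70 days after tamoxifen. GFP+ EpCAM+ cells negative for CD31, CD34, CD45 and the dead-cell dye 7AAD were sorted, so the KO label applies to cells in which Cre had acted on the reporter. The genotype label reads p53-/- for the KO samples of both sets, and the single-cell labels give tamoxifen at 250 mg/kg in both genotypes. Their protocol names a floxed p53 line, a line with a germline p53 deletion and a line with extra p53 copies, and it is not clear from the labels which of these the KO wells carried or whether the cells had been cultured before capture. Each single-cell genotype is 1 chip, so chip and genotype cannot be told apart, and no test was made between wells.

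Trp53 encodes p53, a transcription factor that responds to DNA damage and other stress by switching on genes of cell cycle arrest, repair and cell death. Mdm2 encodes the ubiquitin ligase that marks p53 for degradation, and it is itself a p53 target, which closes a negative feedback loop. Mdm4 encodes a relative of Mdm2 that binds p53 and holds down its activity, and Trp63 encodes p63, the p53 relative that defines basal stem cells of the airway.

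The p53 responsive stretch of Mdm2 is known to lie in its first intron. It is shown, beside the promoter site of Cdkn1a, to give the DNA letters through which the feedback is known to run. The sequences come from GENCODE vM21 transcripts (Mdm2) and from RefSeq promoter windows of GRCm38.p6 (Cdkn1a). Capitals mark the closest matches to the p53 consensus motif, 2 half-sites of 10 bases side by side. The motif equals its own reverse complement, so a search of 1 strand covers both.
Mdm2 intron 1, site 1, chr10:117710100-117710129, minus strand, GRCm38: gggctGGTCAAGTTGGGACACGTCCggcgt
Mdm2 intron 1, site 2, chr10:117710062-117710091, minus strand, GRCm38: ggaggAGCTAAGTCCTGACATGTCTccagc
Cdkn1a promoter, chr17:29090923-29090952, plus strand, GRCm38: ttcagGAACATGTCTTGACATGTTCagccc

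Each Mdm2 match differed from the consensus at 3 of 20 positions, with 18 bases between the matches, and the second ended 38 bases before exon 2 of the transcript Mdm2-201. The same bases lie in the first exon of another annotated transcript, Mdm2-207. The Cdkn1a match differed at 1 position and ended 31 bases before an annotated transcript start. Of 32851 promoter windows, which run from 250 bases before to 50 bases after a start, 0.0883% held a match with at most 1 mismatch and 6.29% held one with at most 3. The promoter window of Trp53 held a match with 3 mismatches, the window of Mdm2 none better than 5, and the 2 windows of Mdm4 none better than 3 and 6. The window of another Cdkn1a start held none better than 5. A match is a description of the letters, and no binding was measured.

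In mm10 coordinates, Trp53 lies on chromosome 11 from 69580359 to 69591873 on the plus strand, Mdm2 on chromosome 10 from 117688875 to 117710758 on the minus strand, Mdm4 on chromosome 1 from 132986105 to 133030587 on the minus strand and Trp63 on chromosome 16 from 25683765 to 25892088 on the plus strand. In GENCODE none of them shares exon bases with another gene. GENCODE also annotates processed copies of 2 of them, Trp53-ps and Mdm4-ps, which were not analysed here. The sources used here do not say how reads shared with those copies were assigned, so the levels of Trp53 and Mdm4 are uncertain to that extent.

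The bulk tables listed 11735 to 11925 genes at an FPKM (fragments per kilobase, scaled to library size) of at least 1 per library. The sorted cells had high levels of club cell genes, summed to 66665 to 89960.1 FPKM in KO libraries and 28498 to 101281 FPKM in WT libraries over the 5 genes usable. WT replicate 1 stood apart. It had the lowest club cell sum of WT, the highest WT sum of 4 alveolar type 2 markers (6982 FPKM, against 3416 FPKM in the lowest WT library) and the highest WT sum of 8 ciliated cell markers (623 FPKM, against 189 FPKM in the lowest). The ciliated cell sum was 608 to 1017 FPKM in KO libraries, and the sum of 7 immune cell markers was 91.4 to 111 FPKM in KO libraries, against 135 to 154 FPKM in WT libraries. In bulk samples fewer cells of a type and less RNA per cell cannot be told apart. Values without WT replicate 1 are given where it turned a direction, ended or made a call, or moved a fold change or list median that the text rests on.

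Trp53, the targeted gene, was at 8.63, 9.98 and 7.56 FPKM in KO replicates 7, 8 and 10, against 16.6, 22.2 and 21.7 FPKM in WT replicates 1, 5 and 6. All KO libraries were below all WT libraries, and the lowest WT value was replicate 1. The mean was 8.73 ± 1.21 FPKM in KO and 20.2 ± 3.09 FPKM in WT (SD, n = 3 each), so that KO libraries kept 43.2% of the WT level. The log2 fold change of FPKM + 1 was -1.12 with a standard error of 0.149 and a 95% interval of -1.47 to -0.77. Trp53 ranked 12 by p among 11957 genes tested with limma, and its adjusted p of 0.144 missed the threshold of 0.05. A two-sided exact permutation test gave p = 0.1, which is the lowest value possible with 3 libraries a side. All KO libraries were below all WT libraries for 10.2% of genes tested. Only 1 gene of the 11957 (0.00836%) passed the adjusted threshold, and it is a microRNA gene row, Mir6374, named here after its values were seen, while 13.1% had an unadjusted p below 0.05.

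Without WT replicate 1 the fold change of Trp53 was -1.25, with a limma adjusted p of 0.00992, in a fit that called 407 genes (3.45% of those tested). Each of the other libraries left out in turn gave a fold change between -1.21 and -1.03, and Trp53 stayed over the threshold. These p-values measure the spread between libraries, since nothing in the labels says that they came from separate animals.

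The level of Trp53 that remained in KO libraries counts any exon of the gene. In the floxed p53 line the loxP sites lie in the first and the last intron, as background knowledge of that line, so the outer exons remain after recombination. In the transcript Trp53-201, which has 11 exons and 1772 bases, the first and last exons make up 681 bases, 38.4% of its length. Transcripts of the outer exons, cells without recombination of Trp53 and RNA from other cells cannot be told apart in a value per gene.

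**Figure D1:**
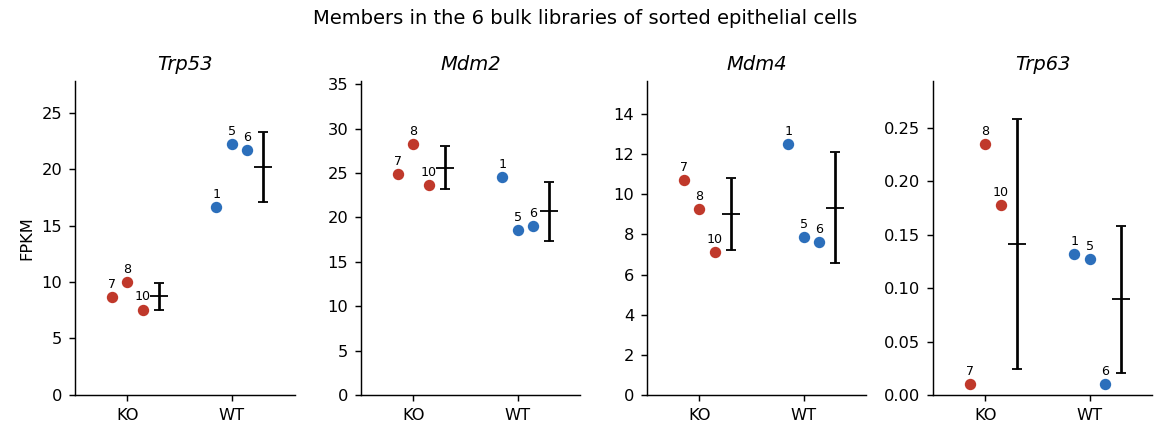
FPKM of Trp53, Mdm2, Mdm4 and Trp63 (y axis, a separate linear scale for each gene) in 3 KO and 3 WT bulk libraries. Points are libraries with their replicate numbers, and the black marks are means with SD. Trp53 sits between 7.56 and 9.98 FPKM in KO and between 16.6 and 22.2 FPKM in WT, while the groups overlap in the other 3 panels.

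Mdm2, the ubiquitin ligase of the loop, was at 24.8, 28.3 and 23.6 FPKM in KO replicates 7, 8 and 10, against 24.5, 18.6 and 18.99 FPKM in WT replicates 1, 5 and 6. The groups overlapped through WT replicate 1, while the other WT libraries were below every KO library. The mean was 25.6 ± 2.42 FPKM in KO and 20.7 ± 3.31 FPKM in WT (SD, n = 3 each). The log2 fold change of 0.30 (standard error 0.133, 95% interval -0.02 to 0.62) did not pass limma, with an adjusted p of 0.397, and the exact permutation p was 0.2. Without WT replicate 1 the fold change was 0.42 with a limma adjusted p of 0.0959, and all KO libraries were above the remaining WT libraries, as was the case for 18.3% of genes tested. With all 6 libraries, 9.04% of genes were above in all KO libraries, and Mdm2 was not among them. The lower end of the limma interval of Mdm2 over all 6 libraries, -0.02, was above the fold change of Trp53, -1.12. That interval covers the spread between these libraries only. WT replicate 1 was also the WT library with the highest ciliated cell sum, 623 FPKM, inside the KO range of 608 to 1017 FPKM. The part of cell composition in the Mdm2 values was not tested.

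Mdm4, the ligase's partner, was at 10.7, 9.25 and 7.11 FPKM in KO replicates 7, 8 and 10, against 12.5, 7.86 and 7.63 FPKM in WT replicates 1, 5 and 6. The groups overlapped over most of their range. The mean was 9.02 ± 1.81 FPKM in KO and 9.34 ± 2.76 FPKM in WT (SD, n = 3 each), with a log2 fold change of -0.03, a standard error of 0.216 and a 95% interval of -0.54 to 0.48. The limma adjusted p was 0.971 and the exact permutation p was 1. The sign turned to 0.18 without WT replicate 1 and to 0.12 without KO replicate 10.

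Trp63 was listed at the table's lowest value, 0.01, in KO replicate 7 and at 0.235 and 0.178 FPKM in KO replicates 8 and 10. In WT replicates 1 and 5 it was at 0.132 and 0.127 FPKM, and WT replicate 6 was listed at 0.01. It was below the filter of 1 FPKM in at least 3 of 6 libraries, so 3 of the 4 genes entered limma. The exact two-sided permutation p of Trp63 was 0.6. The basal cell keratin Krt5 was likewise low, with no library above 0.353 FPKM, and Krt14 was listed at 0.01 in all 3 KO libraries and reached 0.215 FPKM in WT. Not all basal cell markers were low, since 8 of the 15 listed passed the filter. Among these, Krt15 averaged 11.7 FPKM in KO and 5.10 FPKM in WT, Lamb3 23.4 and 33.2 FPKM, and Itgb4 9.91 and 6.71 FPKM. Without WT replicate 1 the WT means of these genes were 7.30, 24.6 and 6.68 FPKM. Krt15 ran from 2.01 to 17.6 FPKM in KO libraries and from 0.702 to 8.88 FPKM in WT libraries.

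The order of the levels differed between genotypes. In KO libraries Mdm2 was highest and did not overlap the others, while Trp53 and Mdm4 overlapped at 8.73 and 9.02 FPKM on average. In WT libraries Mdm2 and Trp53 overlapped at 20.7 and 20.2 FPKM, both above Mdm4 in every library, and Trp63 was lowest in both genotypes. The FPKM ratio of Trp53 to Mdm2 was 0.348, 0.353 and 0.320 in KO replicates 7, 8 and 10, against 0.679, 1.196 and 1.14 in WT replicates 1, 5 and 6, with no overlap. The FPKM ratio of Mdm2 to Mdm4 was 2.32, 3.06 and 3.32 in the KO libraries and 1.96, 2.37 and 2.49 in the WT libraries, with overlap. Averaged over 6 libraries, Mdm2 stood above 71.8% of the genes tested, Trp53 above 58.8% and Mdm4 above 45.5%.

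Of the regulators around these genes, none passed limma's adjusted threshold. In the p53 family list, Trp73, which encodes the relative p73, was at 4.23, 5.15 and 2.64 FPKM in KO libraries, against 3.55, 0.985 and 0.724 FPKM in WT libraries, and WT replicate 1 lay among the KO values. Its log2 fold change was 0.97 (standard error 0.390, limma adjusted p = 0.364), and 1.40 without WT replicate 1. The part of cell composition in the Trp73 values was not tested. Cdkn2a, whose product Arf blocks Mdm2, was listed at 0.01 in all 6 libraries. The other MDM inhibitors were ribosomal proteins. Of 5 tested, 2 were positive and 3 negative, with a median of -0.02, whereas without WT replicate 1 all 5 were negative, with a median of -0.17. Rpl11 had a log2 fold change of 0.26, Rpl23 0.09, Rpl5 -0.04 and Rpl26 -1.64, the last with a standard error of 1.02 and 1 KO library listed at 0.01. Rpl11 turned to -0.03 and Rpl23 to -0.17 without WT replicate 1. Ribosomal protein genes have many processed copies, so their values are uncertain.

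Among 5 tested kinases that act on p53 or Mdm2, 4 were positive and 1 negative, with a median of 0.08. Hipk2, a kinase of p53, had a log2 fold change of -0.28, Chek2 0.15, and the DNA damage kinases Prkdc and Atm 0.08 each. Of 6 other ligases and deubiquitinases, 4 were positive and 2 negative. Usp2, which removes ubiquitin from Mdm2, averaged 4.92 ± 1.29 FPKM in KO and 2.17 ± 1.18 FPKM in WT (SD, n = 3 each), a log2 fold change of 0.94 (limma unadjusted p = 0.0130, adjusted p = 0.312). Ube4b, a ubiquitin ligase for p53, was at 7.57 to 8.63 FPKM in KO libraries and 9.57 to 9.87 FPKM in WT libraries, a log2 fold change of -0.24 (limma adjusted p = 0.363). Trim24 had 0.16, and Usp7, which stabilises both p53 and Mdm2, 0.13. The 6 acetylation genes, 2 positive and 4 negative, had a median of -0.09, with Kat5 at -0.17, Sirt1 at -0.11, Crebbp at -0.09 and Kat8 at -0.08. The 7 phosphatase and partner genes, 5 positive and 2 negative, had a median of 0.05, with Ppm1d, the phosphatase that turns the p53 response down, at -0.18, Trp53bp1 at 0.16, Ppp1r13l at 0.15 and Trp53bp2 at 0.09. The median of all genes tested was 0.0078. Without WT replicate 1 it was -0.01, and the medians were 0.11 for the kinases, 0.05 for the other ligases and deubiquitinases, -0.05 for the acetylation genes and 0.02 for the phosphatase and partner genes. Usp2 was then at 1.23, Atm at 0.26, Prkdc at 0.19, Trp53bp1 at 0.25 and Trp53bp2 at 0.20. Smaller in size than with all libraries were Hipk2 at -0.12, Chek2 at 0.04, Trim24 at 0.04 and Ppm1d at -0.12.

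The genes that p53 is known to switch on had mostly negative fold changes. Of 30 listed targets 28 were tested, of which 8 were positive and 20 negative, with a median log2 fold change of -0.21, while 48.5% of all genes tested were negative. None passed limma's adjusted threshold. At an unadjusted p below 0.05 there were 8 lower and 2 higher of 28, where 13.1% of all genes were past it in either direction. All KO libraries were below all WT libraries for 11 of 28, where 10.2% of all genes were, and above for 1. Without WT replicate 1 that count was 15 of 28, where 17.3% of all genes were. These targets were listed with earlier results on these libraries known, so their direction is not independent evidence.

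Cdkn1a, the gene of p21, which arrests the cell cycle, was at 19.6, 21.3 and 18.0 FPKM in KO replicates 7, 8 and 10, against 37.6, 40.02 and 63.9 FPKM in WT replicates 1, 5 and 6. Bbc3, which encodes the cell death protein Puma, ran from 4.35 to 5.29 FPKM in KO libraries and from 9.80 to 12.2 FPKM in WT libraries. Phlda3, an inhibitor of Akt signalling, ran from 5.19 to 8.39 FPKM in KO and from 12.6 to 21.3 FPKM in WT. Psrc1 was at most 0.844 FPKM in KO, where 1 library was listed at 0.01, and ran from 4.06 to 9.85 FPKM in WT. These 4 were named for the smallest unadjusted limma p of the list, and the KO and WT libraries did not overlap for any of them. Their log2 fold changes were -1.18 for Cdkn1a, -1.06 for Bbc3, -1.17 for Phlda3 and -2.34 for Psrc1, with limma adjusted p-values of 0.203, 0.110, 0.226 and 0.151. Mdm2, which shares their regulator, had a positive value, 0.30. So did 8 of the 28 listed targets tested, among them Tigar and Polk at 0.34 each. All 7 immune cell markers were lower in all KO libraries as well, with a median of -0.90, although the sort had gated out cells with CD45, the protein of Ptprc, and their part in the values of the targets was not tested.

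**Figure D2:**
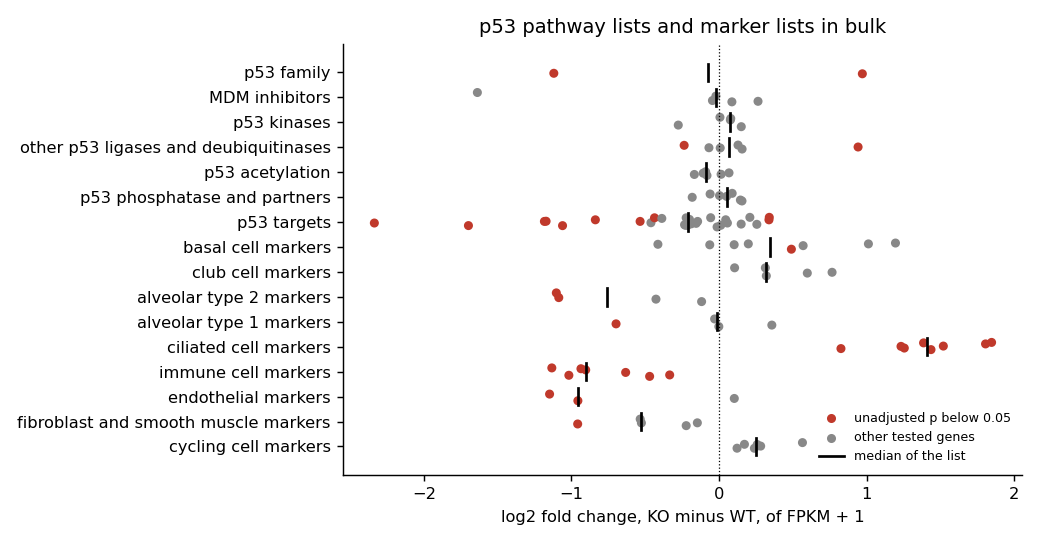
Log2 fold change of FPKM + 1, KO minus WT (x axis), for each tested gene of 7 p53 pathway lists and 9 cell type marker lists (rows). Red points have an unadjusted limma p below 0.05, and black bars are list medians. The p53 targets have a median of -0.21, the immune cell markers -0.90 and the ciliated cell markers 1.41 (1.98 without WT replicate 1), while the acetylation genes are at -0.09 and the kinases at 0.08.

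Across the 6 libraries, the genes most like each gene were found by Pearson's r of log2(FPKM + 1) among 8603 genes with a mean FPKM of at least 5. For Trp53 they were Lurap1l (r = 0.991), Rtn3, Nfkb2, Aven and D630039A03Rik. For Mdm2 they were Dusp14 (r = 0.998), Ndel1, Agbl5, Calml4 and Bok, and for Mdm4 they were Smarcc2 (r = 0.993), Vps13b, Nedd9, Hif1an and Med19. With 6 points that share the genotype split and the position of WT replicate 1, these are descriptions of the same libraries.

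In single wells, expression was given as TPM (a share of all transcripts in the well, corrected for gene length), and a gene was counted as detected at a TPM of at least 1. Wells were called Scgb1a1-dominant or Sftpc-dominant by the higher TPM of these 2 genes, Sftpc being the surfactant gene of alveolar type 2 cells. Of KO wells 49 were Scgb1a1-dominant and 15 Sftpc-dominant, and of WT wells 54 and 18. The median number of detected genes was 3530 in KO wells and 2896 in WT wells, and the median share of TPM in spike-in RNA was 6.46% in KO and 14.2% in WT. Most genes were detected more often in KO wells. Of 11146 genes detected in at least 5% of wells, 78.1% had a higher share in KO, the median difference was 5.56 points, and 29.4% were higher in KO by at least 10 points, against 1.45% lower by as much. Intervals below are at 95% and cover counting error only.

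Trp53 was detected in 16 of 64 KO wells, 25% (exact interval 15.02 to 37.4%), and in 4 of 72 WT wells, 5.56% (1.53 to 13.6%). The difference was 19.4 points (Newcombe interval 7.50 to 31.7), higher than that of 93.5% of all genes compared. The direction is opposite to that in bulk. In KO wells with Trp53 the TPM ran from 7.50 to 1029, with a median of 61.5. The 4 WT wells were at 453, 389, 19.8 and 6.83 TPM. Over all wells the mean was 35.8 TPM in KO and 12.1 TPM in WT, and without the highest well of each genotype it was 20.04 and 5.89 TPM. A value of any size above 0 was listed in 19 KO wells and 12 WT wells. The single-cell values per gene do not show which exons were read, so detection in a KO well does not tell an intact transcript from one of the remaining exons.

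Trp53 was detected more often in KO wells of both states. Among Scgb1a1-dominant wells it was in 11 of 49 KO wells and 4 of 54 WT wells, a difference of 15.04 points (1.19 to 29.2). Among Sftpc-dominant wells it was in 5 of 15 KO wells and 0 of 18 WT wells, which allows a share of up to 16.7%, and the difference was 33.3 points (8.05 to 58.3). The highest KO well, at 1029 TPM, was Sftpc-dominant, and all 4 WT wells with Trp53 were Scgb1a1-dominant. The mean level differed less between genotypes in Scgb1a1-dominant wells, at 16.5 TPM in KO and 16.1 TPM in WT. Without the highest well of each genotype in that state it was 11.4 and 7.89 TPM. In Sftpc-dominant wells the mean was 98.7 TPM in KO and 0 TPM in WT, and 32.3 TPM in KO without the well at 1029 TPM. Split by detected genes, Trp53 was in 2 of 9 KO wells and 1 of 25 WT wells below 2500 genes, in 5 of 22 KO wells and 1 of 30 WT wells from 2500 to below 3500 genes, and in 9 of 33 KO wells and 2 of 17 WT wells from 3500 genes up. The share was thus higher in KO in each range.

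**Figure D3:**
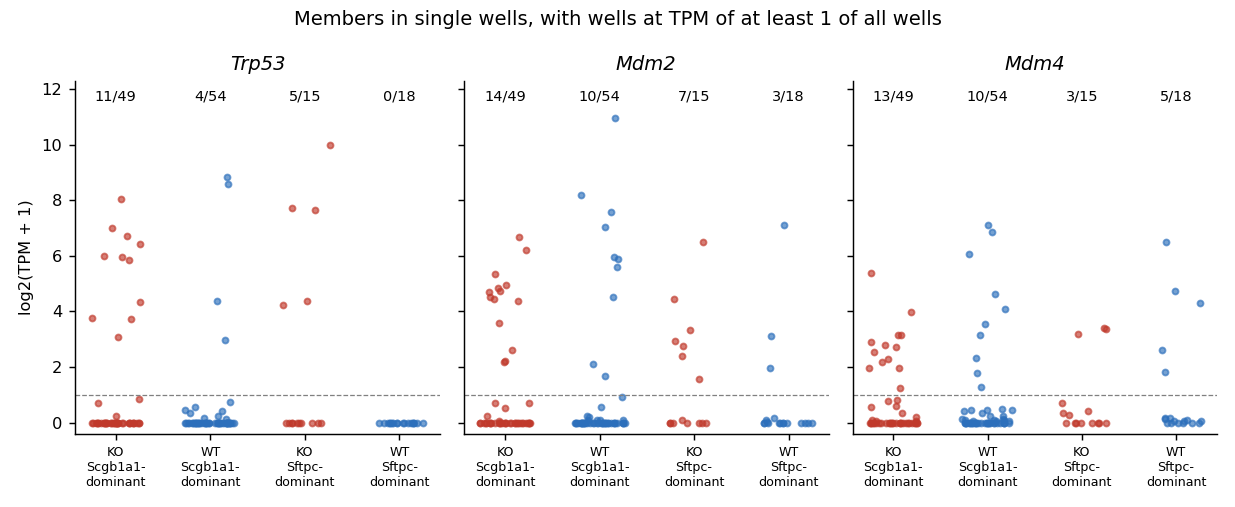
Log2(TPM + 1) of Trp53, Mdm2 and Mdm4 (y axis) in each single well, by genotype and by which of Scgb1a1 and Sftpc was higher (x axis; points are spread sideways at random). The dashed line marks a TPM of 1, and the figures at the top give wells at or above it of all wells. Trp53 is above the line in 11 of 49 and 5 of 15 KO wells, against 4 of 54 and 0 of 18 WT wells.

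Mdm2 was detected in 21 of 64 KO wells, 32.8% (21.6 to 45.7%), and in 13 of 72 WT wells, 18.1% (9.98 to 28.9%), a difference of 14.8 points (0.143 to 28.9). This difference exceeded that of 85.1% of all genes compared, of which 29.4% were higher in KO by at least 10 points. Where Mdm2 was detected, the level over both states together ran the other way. The median over wells with Mdm2 was 21 TPM in KO and 58.1 TPM in WT, and 1 KO well and 5 WT wells reached 100 TPM. Medians over wells with the gene were also lower in KO for Trp53 (61.5 against 204 TPM) and Mdm4 (6.20 against 15.9 TPM). Whether the same held for all genes was not tested. The highest KO wells were at 100, 90.4 and 72.7 TPM, and the highest WT wells at 1996, 292 and 193 TPM. The mean over all wells was 8.60 TPM in KO and 41.1 TPM in WT, of which 1 WT well held most. Without the highest well of each genotype it was 7.14 and 13.5 TPM.

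By state, Mdm2 was in 14 of 49 KO and 10 of 54 WT wells that were Scgb1a1-dominant, a difference of 10.1 points (-6.28 to 26.1), and in 7 of 15 KO and 3 of 18 WT wells that were Sftpc-dominant, a difference of 30.0 points (-1.41 to 55.6). Both intervals span zero. Over Scgb1a1-dominant wells with Mdm2 the median was 23.6 TPM in KO and 59.35 TPM in WT, and over Sftpc-dominant ones 6.71 and 7.75 TPM. The mean over all Scgb1a1-dominant wells was 8.38 TPM in KO and 51.98 TPM in WT. Over all Sftpc-dominant wells it was 9.29 and 8.30 TPM, so the lower mean in KO was not seen in that state. Split by detected genes, it was in 1 of 9 KO and 1 of 25 WT wells below 2500 genes, in 10 of 22 KO and 5 of 30 WT wells from 2500 to below 3500, and in 10 of 33 KO and 7 of 17 WT wells from 3500 up. In the last range the share was thus lower in KO, at 30.3%, than in WT, at 41.2%.

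Mdm4 was detected in 16 of 64 KO wells, 25% (15.02 to 37.4%), and in 15 of 72 WT wells, 20.8% (12.2 to 32.02%). The difference of 4.17 points (-9.83 to 18.3) was below the median of all genes. Levels were low where it was detected, with a median of 6.20 TPM in KO wells and 15.9 TPM in WT wells. The highest KO wells were at 40.3 and 14.6 TPM and the highest WT wells at 139, 116 and 90.4 TPM. The sign of the difference depended on the threshold, since 2 KO wells and 9 WT wells reached 10 TPM, and 29 KO wells and 38 WT wells had any value above 0. The mean over all wells was 2.18 TPM in KO and 7.40 TPM in WT. By state, Mdm4 was in 13 of 49 KO and 10 of 54 WT wells that were Scgb1a1-dominant, and in 3 of 15 KO and 5 of 18 WT wells that were Sftpc-dominant.

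**Figure D4:**
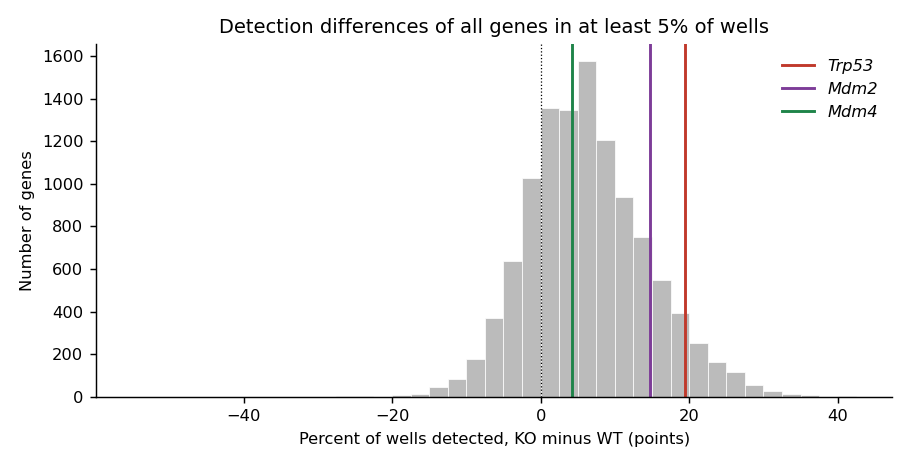
Number of genes (y axis) by the difference in percent of wells detected, KO minus WT, in points (x axis), over 11146 genes detected in at least 5% of wells. Coloured lines mark Mdm4 at 4.17, Mdm2 at 14.8 and Trp53 at 19.4 points. The bulk of genes lies right of zero, with a median of 5.56 points.

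Trp63 was detected in 0 of 64 KO wells and 0 of 72 WT wells, which allows shares of up to 4.69% and 4.17%. The only value above 0 was 0.09 TPM, in 1 KO well. Of 15 basal cell markers 6 were likewise detected in no well, among them the keratins Krt5, Krt14 and Krt17 and the receptor Ngfr. Others were present, such as Pdpn in 36 KO and 23 WT wells, Krt15 in 5 KO and 10 WT wells and Aqp3 in 21 KO and 11 WT wells. Pdpn and Aqp3 are also used by other lung epithelial cells. Trp73 was detected in no well of either genotype.

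Co-detection of the members was close to the product of their shares in KO wells. Trp53 and Mdm2 were detected together in 6 KO wells and 2 WT wells, where the product of the shares gives 5.25 and 0.722. In the 6 KO wells Trp53 ran from 17.8 to 213 TPM and Mdm2 from 2.00 to 25.2 TPM. In the 2 WT wells Trp53 was at 389 and 19.8 TPM and Mdm2 at 3.32 and 2.21 TPM, so that neither was among the 9 WT wells with Mdm2 of 10 TPM or more. Trp53 and Mdm4 were together in 5 KO wells and 0 WT wells, where the products give 4.00 and 0.833. Mdm2 and Mdm4 were together in 7 KO wells and 4 WT wells, where the products give 5.25 and 2.71.

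None of the 3 genes was detected in 27 KO wells and 46 WT wells, 1 was detected in 23 and 20, 2 were detected in 12 and 6, and all 3 were detected in 2 KO wells and 0 WT wells. The first well with all 3, Scgb1a1-dominant, had 127 TPM of Trp53, 3.50 of Mdm2, 1.36 of Mdm4 and 194 of Cdkn1a. The second, Sftpc-dominant, had 17.8 TPM of Trp53, 21.1 of Mdm2, 9.35 of Mdm4 and 450 of Cdkn1a. These wells had 5412 and 5146 detected genes, and 5412 was the highest number of any KO well.

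Mdm2 was set against Cdkn1a, since both are known p53 targets. Cdkn1a was detected in 9 of 21 KO wells with Mdm2 (42.9%) and 10 of 43 KO wells without it (23.3%). In WT it was detected in 9 of 13 wells with Mdm2 (69.2%) and 22 of 59 wells without it (37.3%). The share was higher beside Mdm2 in both genotypes. Among WT wells the median number of detected genes was also higher with Mdm2, at 3654, than without it, at 2638, while among KO wells it was 3447 with Mdm2 and 3665 without. The part of well depth in the WT pairing was not tested. The WT well with 1996 TPM of Mdm2 had 909 TPM of Cdkn1a, the highest value of Cdkn1a in WT, and 24.0 TPM of Mdm4. Over all wells Cdkn1a itself was detected in 19 of 64 KO wells and 31 of 72 WT wells, a difference of -13.4 points (-28.5 to 2.84).

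**Figure D5:**
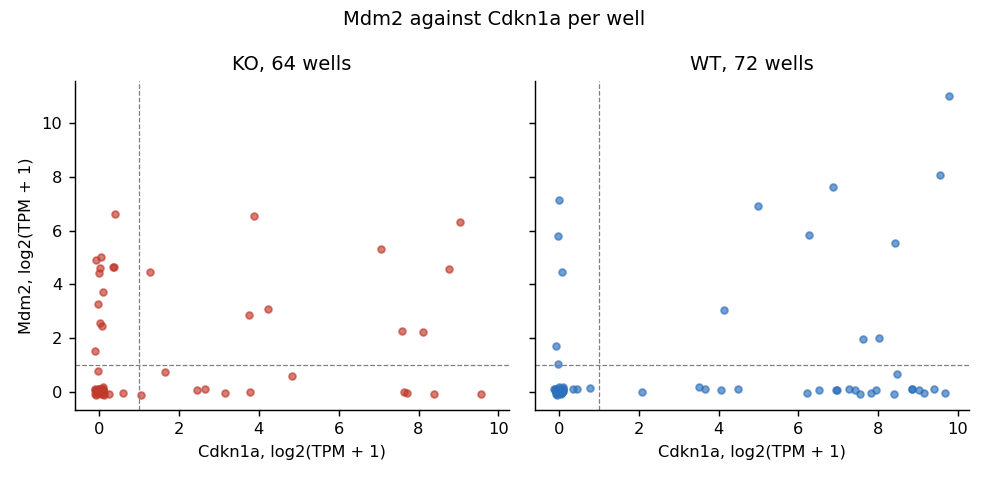
Log2(TPM + 1) of Mdm2 (y axis) against Cdkn1a (x axis) in 64 KO wells and 72 WT wells. Points are moved slightly at random and the dashed lines mark a TPM of 1. Both genes are above their lines in 9 KO and 9 WT wells, and the WT well at the top right had 1996 TPM of Mdm2.

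Mdm4 was set against the same gene and against a gene of replication. With Cdkn1a it was detected in 5 KO wells and 11 WT wells, where the products give 4.75 and 6.46. Cdkn1a was in 31.2% of KO wells with Mdm4 and 29.2% of those without, against 73.3% and 35.1% in WT. Pcna, the DNA polymerase clamp of replicating cells, was in 13 of 16 KO wells with Mdm4 and 22 of 48 without, and in 5 of 15 WT wells with Mdm4 and 17 of 57 without. For this pair the products give 8.75 KO and 4.58 WT wells. Mdm2 and Pcna were together in 12 KO and 6 WT wells, where the products give 11.5 and 3.97. Trp53 was with Pcna in 10 KO and 2 WT wells (products 8.75 and 1.22). With Cdkn1a it was in 6 and 3 (products 4.75 and 1.72). The median number of detected genes was 3849 in KO wells with Mdm4 and 3423 in those without, and 3348 and 2777 in WT wells with and without it. The part of well depth in these pairings was not tested. Over all wells Pcna was detected in 35 of 64 KO wells and 22 of 72 WT wells.

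Across the 136 wells, with log2(TPM + 1) centred within genotype, Pearson's r was 0.005 between Trp53 and Mdm2, -0.07 between Trp53 and Mdm4, 0.15 between Mdm2 and Mdm4 and 0.25 between Mdm2 and Cdkn1a. Most wells are at or near 0 for each gene and wells of a chip share its depth, so these are descriptions. Among 8377 genes detected in at least 10% of wells, those most like Trp53 were Anapc10 (r = 0.477), Papd5, RP24-132L16.11, Pdcd11 and Prmt2. Those most like Mdm2 were Ralgapa2 (r = 0.434), Lpin1, Nedd4l, Col4a3 and Sap130, and those most like Mdm4 were Zfp799 (r = 0.399), Cramp1l, Gm37494, Arhgap8 and Tc2n. None of these genes was among the 5 most like the same gene in bulk.

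The listed p53 targets were also counted in wells. Of 26 listed targets detected in at least 5% of wells, 2 were higher in KO by at least 10 points and 2 were lower, where 29.4% of all genes compared were higher and 1.45% lower by as much. The median difference was 1.30 points for the targets and 5.56 points for all genes. Lower were Cdkn1a and Phlda3, with Phlda3 in 0 of 64 KO wells and 8 of 72 WT wells. Higher were Btg2, an antiproliferative gene, in 54 KO and 40 WT wells, and Perp, a membrane protein of cell junctions, in 24 KO and 14 WT wells, both named after their values were seen. Bbc3 was in 8 KO and 8 WT wells, and Psrc1 in 1 KO and 8 WT wells. Whether the list differed between bulk and wells was not tested.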

How the data were processed

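Bulk values are FPKM deposited by the authors. The submitters' processing notes name mm10, Cufflinks, TopHat and Bowtie2, and the labels' protocols give single reads of 75 nucleotides. Genes with an entry marked in place of a value (12 of 24341, Scgb1a1 and Sftpc among them) were left out. Single-cell values are TPM deposited by the authors in 1 table per genotype. For these the same notes name GRCm38, Bowtie 1.1.1 and RSEM 1.2.20. Neither unit carries read counts, so depth is unknown and no count test was used. Of the KO cell samples, 2 were not analysed here for want of a matched column. Wells were inspected and those holding doublets or debris dropped, per the labels' protocols, and no doublet caller was run.

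Bulk genes that reached 1 FPKM in 3 or more of the 6 libraries were tested, two-sided, in limma (version 3.58.1, eBayes with trend and robust, R version 4.3.3) on values of log2(FPKM + 1), Benjamini-Hochberg adjusted over all genes tested, at 0.05. Fold changes on this scale understate low genes. The limma script was tested on simulated data. Each gene of the 4 also had an exact permutation test. In wells, shares have exact (Clopper-Pearson) intervals and differences Newcombe intervals at 95%, and a count of 0 is read as at most 3 wells. Named pathway genes are up to 4 of each list with the smallest unadjusted p. The 4 genes and all lists were chosen with earlier results of these data known.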

Additional observations from a re-analysis of the deposited data

Results flagged for a closer look

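Trp53 ran in opposite directions in the bulk libraries and in the wells. Its log2 fold change in bulk was -1.12, KO minus WT, while its share of wells was higher in KO by 19.4 points. The difference between the 2 data sets was not tested, and the alleles may differ between them.

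Mdm4 detection, KO minus WT, was 8.01 points in Scgb1a1-dominant wells and -7.78 points in Sftpc-dominant wells. The intervals of both span zero, from -8.06 to 24.0 and from -34.3 to 21.7, and the difference between the states was not tested.

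The off-chip positive control of the KO chip, which entered no comparison, had 6.67 TPM of Trp53, 2.41 TPM of Mdm2 and 1.80 TPM of Mdm4 at 7953 detected genes, and the negative control was at 0 for all of them. Of the 3 KO wells left out for a remark, 1 had 50.6 TPM of Trp53.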

How the results depend on the processing

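Of 73 alternative values, 57 were counted as the same, 13 as moved, 2 as reversed and 1 as stronger. Bulk fold changes had to keep direction and side of the threshold (for Trp63 direction only), and gene counts to stay within a set ratio. Shares of wells and their differences had to stay within the counting interval, which Mdm4 detection did in 2 settings where its sign turned. Differences in mean TPM could only count as moved or reversed. With each bulk library left out in turn, the log2 fold change ran from -1.25 to -1.03 for Trp53, from 0.23 to 0.42 for Mdm2, from -0.15 to 0.18 for Mdm4 and from 0.0034 to 0.15 for Trp63, and the number of genes called from 0 to 407. Trp53 passed the threshold only without WT replicate 1, and its adjusted p over the 9 alternatives ran from 0.00992 to 0.725. Mdm4 turned positive without WT replicate 1 (0.18) and without KO replicate 10 (0.12). All genes called numbered 1 in the report, 2 with a pseudocount of 0.1 and 3 with no filter on low values. The difference in Mdm4 detection was -11.9 points in wells with at least 3000 genes, -9.38 points at a TPM of at least 10 and -7.47 points at any TPM above 0. For Mdm2 the difference of 14.8 points became 7.57, 7.81 and 8.85 points in these settings. In wells with at least 1000 genes the differences were 20.2 points for Trp53, 14.7 points for Mdm2 and 1.86 points for Mdm4. The share of wells with at least 2 of the 3 genes, 21.9% in KO and 8.33% in WT, was 40.6% and 29.2% at any TPM above 0. The cause was not tested. The difference in mean TPM without the highest well of each genotype, chosen after seeing the data, was 14.1 in place of 23.7 for Trp53, -6.39 in place of -32.5 for Mdm2 and -3.97 in place of -5.22 for Mdm4. The list counts, list medians and regulator fold changes without WT replicate 1 were also chosen after seeing the data. No paired analysis was possible because the bulk genotypes share no replicate number and the wells were not tested. With 1 chip per genotype, unknown read depth and fewer detected genes in WT wells, a share of wells does not separate expression from detection.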
